A study of Mus musculus with 20 samples.

Results

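The mouse iPSC line WT#20D-17, which the sample labels give as wild type (WT) and the text of the study does not describe, was compared with a pair of Nox4 knockout lines, #5-8 and #5-23 (both Nox4-/-). Its 5 libraries and the 10 libraries of the Nox4-/- lines, 5 from each, make up 15 of the 20 RNA-seq libraries of the series. They were chosen by line and day from the library labels, with 1 library per line on each of days 0, 3, 5, 7 and 14 of embryoid body (EB) differentiation. The line WT#1-4, also wild type, took no part in the comparison, and its values are printed beside some results as a description. Per the methods, iPSCs of both genotypes were derived from mouse embryonic fibroblasts (MEF) with viruses carrying Oct4, Sox2, Klf4 and c-Myc, picked as single colonies, and kept on MEF feeder cells with LIF. EBs were then made in hanging drops without LIF and plated on gelatin. The protocol text of the labels ends at day 10 where the titles and the study give day 14, and the titles were followed.

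Each line is 1 clone, and its days are steps of 1 course rather than independent cultures. The genotype and the line can therefore not be told apart, and with 1 line against 2 an exact permutation test over lines cannot give a p below 0.333. The p-values here measure the spread left after day and genotype are fitted. That spread holds the differences between the 2 Nox4-/- lines and any change with day that is not shared by all lines. The methods name CF-1 embryos for the preparation of MEF, and the strain of the wild type and Nox4-/- donors and their sex are not given in the sources used here. In bulk RNA, fewer cells of a type and less RNA per cell cannot be told apart.

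Nox4 is a transmembrane NADPH oxidase that passes electrons from NADPH to oxygen and releases mainly hydrogen peroxide. It works in a complex with p22phox, the product of Cyba, and unlike Nox1 or Nox2 needs no cytosolic activator subunits. EBs pass through stages that resemble the embryo around implantation: the inner cells leave naive pluripotency and take on an epiblast state, the surface forms an extraembryonic endoderm that lays down basement membrane, and mesoderm arises through a state like the primitive streak. The stem cell state is held by a circuit of factors around Oct4, Sox2 and Nanog.

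WT#20D-17 differed from the Nox4-/- lines across the whole transcriptome. Of 16471 genes whose mean was 10 counts or more, 7332 (44.5%) passed a false discovery rate (FDR) of 0.01 in edgeR's quasi-likelihood test with the day as a block. They divided into 3994 genes higher in WT#20D-17 (24.2%) and 3338 lower (20.3%), and the median log2 difference of all genes tested was 0.01. All differences below are fitted log2 values, WT#20D-17 minus Nox4-/-, ± SE. The SE is an approximation, the absolute difference divided by the square root of the F of the test. In 4360 genes (26.5%) the 5 WT#20D-17 libraries and the 10 Nox4-/- libraries did not overlap, with 2380 higher (14.4%) and 1980 lower (12%). The same direction in all 10 day-matched pairs was found in 6915 genes (42%). These shares are the background for every count of a gene group below. Some genes are in more than 1 group and count in each. A gene with few counts passes the filter through the group where it is high, so counts over tested members describe these libraries and are not a test of a group.

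Taken against 1 Nox4-/- line at a time, WT#20D-17 differed in 5117 genes from #5-8 (30.8%) and in 5653 from #5-23 (34.1%). Of 16347 genes tested in both, 4179 (25.6%) were called in the same direction, 2408 higher and 1771 lower, and 4 were called in opposite directions. These 2 comparisons share the WT#20D-17 libraries. Among the called genes that the naming rule picked and that are described below, Cyba, Foxf1, Snai1, Tek, Lum, Col1a2, Tgfb2, Ccnb2 and Eif2s3y did not pass against #5-8 alone, Eomes, Jun, Psmb8 and mt-Nd4l did not pass against #5-23 alone, and Sox2, T, Col3a1, Pdgfrb, Etv5, Plk1, Top2a, Hoxb3, Hoxc5 and Prkaa2 did not pass against either. When the counts of each line were summed over its days, so that the line was the unit, 500 genes were called, of which 66.8% were higher.

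Library totals ran from 20294968 to 27708023 counts, so that 3 counts, taken as the floor, amounted to 0.108 to 0.148 CPM, the counts scaled to library size. The WT#20D-17 library of day 14 stood apart from the others. Its 20 most abundant genes held 13.3% of the counts, against 7.43% to 9.47% in the other libraries, and 12 basement membrane genes held 8.09%, against 0.101% to 0.336% in the Nox4-/- libraries. Without it, 26 of 142 named and called genes that could still be tested moved by over 1.5 times, 0 changed sign and 5 lost the call (Sox2, Tgfb2, Top2a, Ccnb2 and mt-Nd4l). The log2 difference without it was 11.72 for Afp, 11.25 for Lama1, 5.86 for Col4a1, 6.53 for Col4a2, 6.07 for Plat, 6.99 for Col3a1, 5.91 for Lum, 6.36 for Col1a2 and 8.41 for Myh7. It was 8.73 for Igf2, 7.91 for H19, 3.33 for Snai1, 4.18 for T, −4.24 for Tek, −4.51 for Klf4, 5.16 for Psmb8, 5.58 for Hoxb3, 13.56 for Cldn6 and 1.03 for Prkaa2. The mitochondrial genome supplied 0.498% to 1.66% of counts in WT#20D-17 and 1.74% to 2.68% in the Nox4-/- lines.

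Nox4 (ENSMUSG00000030562, GRCm38 chr7:87246096-87398710) was detected in every WT#20D-17 library. Its level was 2.63, 7.15, 8.08, 9.01 and 2.93 CPM on days 0, 3, 5, 7 and 14. The 10 Nox4-/- libraries held 3 counts of Nox4 in all, in #5-8 on days 3 and 7 (0.0844 and 0.0477 CPM), and #5-23 had none. The groups did not overlap, and their ratio was 488 with a 95% Poisson interval of 167 to 2370 that covers counting error only. The targeted gene therefore followed the labels (log2 difference 8.45 ± 0.566, FDR 1.16e-07). In WT#1-4 the values were 0.265, 0.883, 0.775, 0.46 and 0.153 CPM, below WT#20D-17 on each day. Of the other catalytic subunits, Nox1, Cybb (Nox2), Nox3, Duox1 and Duox2 had too few counts to be tested, and none of them reached 1 CPM in any of the 15 libraries.

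The pluripotency genes divided WT#20D-17 and the Nox4-/- lines in both directions. The 4 factors that the methods give for reprogramming were all lower in WT#20D-17 (3 without its day 14 library). Whether the viruses of the methods were used for WT#20D-17 is not given in the sources used here. Of 24 endogenous pluripotency genes 18 were higher and 3 lower, with a median log2 difference of 5.53. In 17 of the 18 the groups did not overlap. Formative and epiblast genes were higher in 6 of 7 cases (median 5.57).

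Pou5f1, which encodes Oct4, was at 1140, 388, 113, 81.4 and 21.2 CPM in WT#20D-17 from day 0 to day 14. In the Nox4-/- libraries it ran from 1840 to 4400 CPM with a median of 3230, so that no WT#20D-17 library reached the lowest of them (−4.03 ± 0.698, FDR 0.000327). Myc was at 50.9, 34.2, 36.3, 25.9 and 16.4 CPM against 267 to 684 (median 489; −3.92 ± 0.19, FDR 8.43e-09). Klf4 showed a different course, with 26.4 CPM on day 0 and 180 CPM on day 14, but also lay below the Nox4-/- range of 452 to 830 CPM. Oct4 declined over the WT#20D-17 course and stayed high in both Nox4-/- lines. Sox2 overlapped between groups, at 196 to 6.96 CPM against 82.7 to 203, and its difference of −1.81 ± 0.523 (FDR 0.00995) was lost with either Nox4-/- line alone and without the block (−1.17, FDR 0.0912). Gene-level counts do not separate any virus-borne transcripts of these 4 genes from the endogenous ones.

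Nanog, the homeodomain factor of naive pluripotency, was at 383, 165, 44.6, 30 and 8.37 CPM in WT#20D-17. In the Nox4-/- libraries it ran from 0.149 to 1.02 CPM (median 0.361), and the difference was 7.24 ± 0.73 (FDR 3.76e-06). Zfp42 (Rex1) had 41.7 CPM on day 0 and 6.52 to 23.2 CPM later, and no count in any Nox4-/- library, at least 1540-fold higher in WT#20D-17. These genes were thus present on every day in WT#20D-17. In the Nox4-/- lines Zfp42 had no count from day 0 on, and Nanog was low but above the floor, at 1.02 CPM or less. Lin28a, which blocks the maturation of let-7, kept 226 to 604 CPM through the WT#20D-17 course and did not pass 0.667 CPM in the Nox4-/- lines (11.55 ± 0.591). For Utf1 the ratio was 7810 (95% interval 2670 to 37800) and for Dnmt3l, the cofactor of de novo methylation in germ cells and early embryos, 4190 (1430 to 20300). Klf5 was at 54.5 to 176 CPM against 2.57 to 7.19 (4.29 ± 0.321).

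Set beside the iPSC label, the Nox4-/- libraries of day 0 held Pou5f1, Klf4, Myc and Sox2 at 154 to 4400 CPM, Nanog at 0.359 and 0.149 CPM, and Zfp42, Lin28a and Utf1 without a count. The summed level of the 24 genes was 4130 CPM on day 0 in WT#20D-17 against 527 and 452 CPM in #5-8 and #5-23, and 855 against 380 and 362 CPM on day 14. WT#1-4 lay with the Nox4-/- lines here, with sums of 202 to 409 CPM and no count of Zfp42. The 3 exceptions were Fgf4, Nr0b1 and Fbxo15, which were lower in WT#20D-17. Fgf4, an Oct4 and Sox2 target whose product drives exit from naive pluripotency, fell from 93.5 to 2.25 CPM over the WT#20D-17 course while the Nox4-/- lines held 112 to 190 CPM (−3.59 ± 0.691, FDR 0.000717).

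Epiblast genes had the same direction. Fgf5, which marks the epiblast after implantation, was at 95, 70.7, 20.1, 29.6 and 1.62 CPM in WT#20D-17 and had 3 counts in all Nox4-/- libraries, a ratio of 3690 (1260 to 17900). Otx2 was at 15.4 to 191 CPM against 0 to 0.971 (8.41 ± 0.768). Dnmt3b, the de novo DNA methyltransferase of the epiblast, was at 725 CPM on day 0 and 42.7 CPM on day 14, above the Nox4-/- range of 1.99 to 13.2 CPM (5.58 ± 0.215, FDR 1.36e-09). All 3 were highest on day 0 and lowest on day 14 in WT#20D-17.

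**Figure D1:**
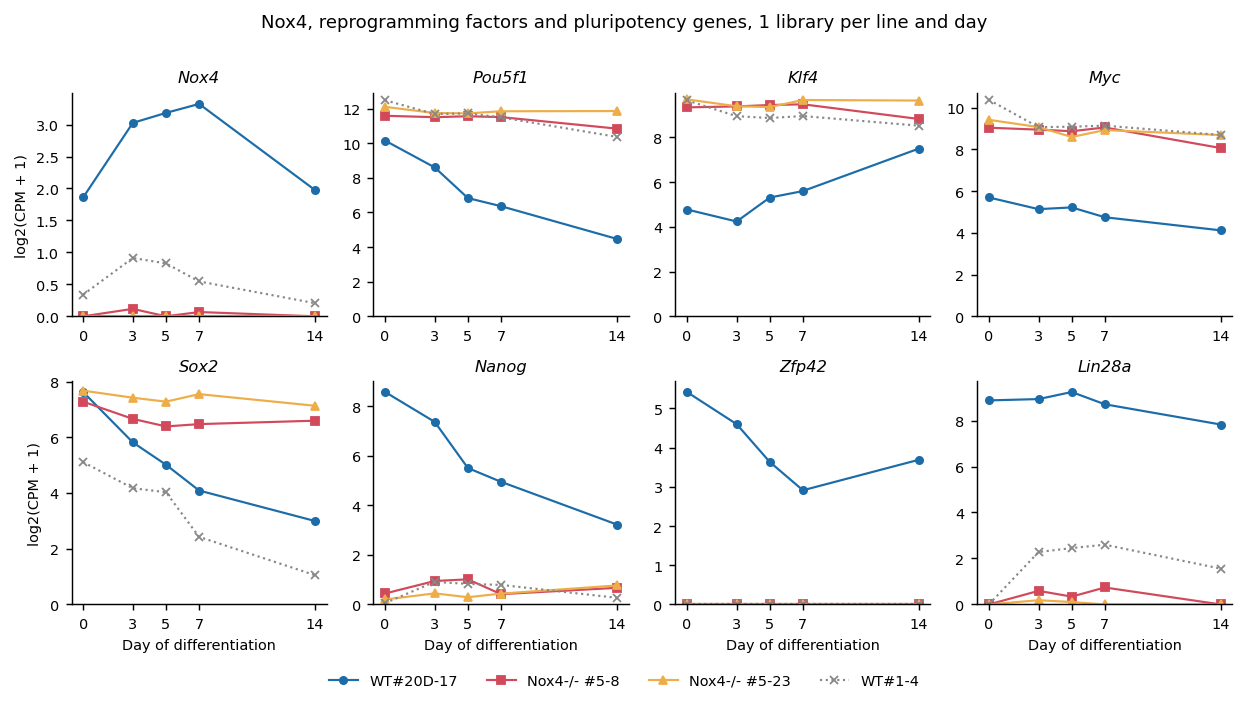
Level of Nox4, the 4 reprogramming factors and 3 endogenous pluripotency genes by day in each line, as log2(CPM + 1), 1 point per library, with WT#1-4 dotted for reference. Pou5f1, Klf4 and Myc of WT#20D-17 lie below both Nox4-/- lines on every day, while Nanog, Zfp42 and Lin28a lie above them, with Zfp42 at 0 in all 10 Nox4-/- libraries.

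The Nanog promoter is shown because the joint motif of Oct4 and Sox2, the octamer joined to a Sox element, was found there. The 250 bases before each start site of GRCm38.p6 were searched on both strands. Of 27025 genes with a RefSeq promoter, 2 held the motif (0.0074%), Nanog and 1 other. A promoter sequence was matched for 13 of the 24 pluripotency genes, and Nanog was the 1 that held it. The stretch is chr6:122707384-122707457, plus strand, with the motif in capitals 61 bases before the start site:
Nanog: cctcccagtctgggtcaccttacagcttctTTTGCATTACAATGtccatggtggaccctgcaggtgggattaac
The match is a description of the letters and was not tested for binding. Nanog and Oct4 moved in opposite directions between the lines.

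Genes of extraembryonic and definitive endoderm had the largest median differences among the groups with more than 1 tested gene. The 10 transcription factors of the list were all higher in WT#20D-17 without overlap, with a median log2 difference of 10.22, and 13 of 14 genes for proteins that the visceral endoderm secretes or takes up were higher (median 9.83). Their summed level was 182 to 1190 CPM for the factors in WT#20D-17 against 2.24 to 3.91 CPM in the Nox4-/- lines, and 1350 to 6480 against 22.3 to 87.2 CPM for the secreted and transport proteins. In WT#1-4, also wild type, the sums were 2.2 to 9.58 CPM for the factors and 43.3 to 143 CPM for the secreted and transport proteins. The counts were the same without the day 14 library of WT#20D-17.

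Sox17, a factor of primitive and definitive endoderm, was at 8.33 CPM on day 0 of WT#20D-17 and at 75.1, 115, 144 and 126 CPM on days 3 to 14. No Nox4-/- library held a count of it, which makes it at least 7590-fold higher. It was above the floor before differentiation began, on day 0. Foxa2 had 2 counts in the Nox4-/- lines, a ratio of 7520 (2080 to 62100). Hnf4a, the nuclear receptor that drives apolipoprotein genes, was at 13, 63.9, 151, 137 and 39.2 CPM (11.80 ± 0.438). Gata4 was detected in every library, at 84.6 to 646 CPM in WT#20D-17 and 1.11 to 3.23 CPM in the Nox4-/- lines (7.82 ± 0.483), and Gata6 was at 13.4 to 140 CPM against 0 to 1.24 (7.14 ± 0.755).

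Products of the visceral endoderm followed. Apob, which carries lipid out of the yolk sac endoderm and liver, was at 91.2, 375, 1360, 2450 and 513 CPM and did not pass 0.127 CPM in the Nox4-/- lines (14.79 ± 0.425, FDR 1.14e-10). Afp, the fetal serum protein, was at 1.15, 32.3, 99.4, 269 and 665 CPM against at most 0.0477 CPM (12.79 ± 0.471). Afp was highest on day 14 and Apob on day 7. Ttr, the thyroid hormone carrier, and Spink1, a secreted trypsin inhibitor, had no count in the Nox4-/- lines and were at least 9340-fold and 19600-fold higher, with peaks of 277 CPM on day 7 and 482 CPM on day 5. In WT#1-4 these 4 genes reached at most 1.69 CPM.

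Promoters were matched for 11 of the 14 visceral endoderm genes. On both strands, the GATA motif AGATAA was in none of the 11, against 11.4% of all genes with a promoter and 7.2% of the tested ones. The FOXA motif TGTTTAC was in 2, Apoa2 and Rbp4, against 3.54% of all and 2.71% of the tested ones. Of 5 matched promoters of the endoderm factors, 2 held the GATA motif, Foxa2 and Hnf4a, and 1 the FOXA motif, Foxa1.

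Basement membrane genes of the kind made by parietal endoderm were higher in 8 of 12 cases and lower in 1, with a median of 2.39. Lama1, the laminin chain of the first embryonic basement membranes, was at 199, 402, 742, 1460 and 8590 CPM in WT#20D-17 and 0 to 0.708 CPM in the Nox4-/- lines (12.60 ± 0.878). Col4a1, a type IV collagen chain, was at 379, 810, 2160, 3630 and 26100 CPM against 5.24 to 43.2 (7.03 ± 0.91), and Col4a2, its partner from the same bidirectional promoter, reached 17400 CPM (7.75 ± 1.28). These genes were higher on every day, and the day 14 library exceeded the next by several fold. Without that library 7 of the 12 were higher, 1 lower, and the median was 1.86. Plat, the tissue plasminogen activator that parietal endoderm secretes, was at 4.43 to 176 CPM against 0.0455 to 0.721 (6.99 ± 0.82). Thbd, thrombomodulin, was the lower member, at 0.246 to 14.4 CPM against 13.9 to 51.1 (−4.10 ± 0.83).

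**Figure D2:**
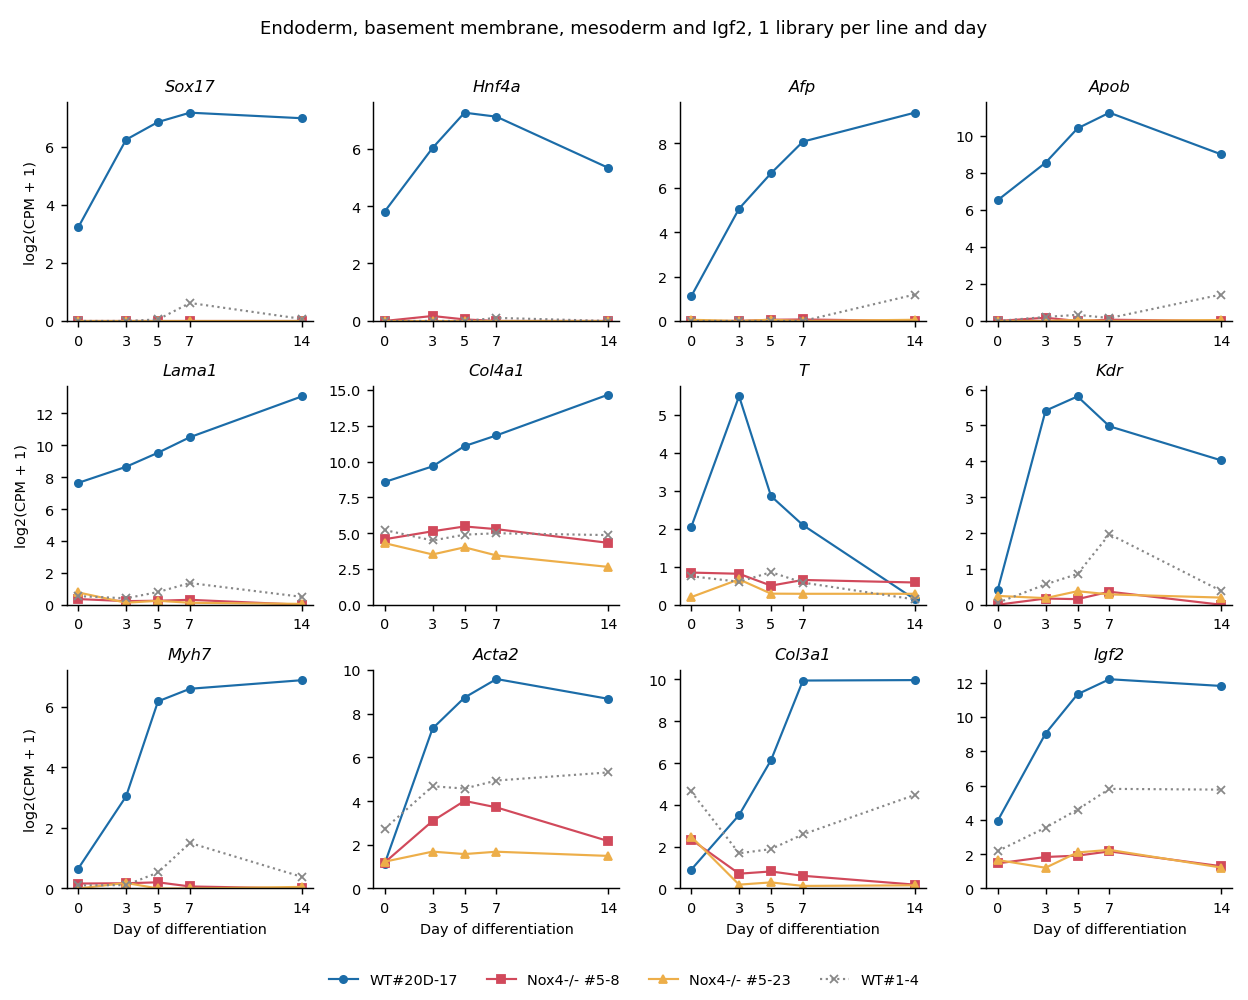
Level of 12 lineage genes by day in each line, as log2(CPM + 1), 1 point per library, with WT#1-4 dotted. Sox17, Hnf4a, Afp, Apob, Lama1 and Col4a1 of WT#20D-17 lie above both Nox4-/- lines on all 5 days, T peaks on day 3 at 44.1 CPM, and Col3a1 and Igf2 separate with time.

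Primitive streak and early mesoderm genes were higher in WT#20D-17 in 12 of 16 tested cases, with a median of 3.91, and the 4 others were not called. T (brachyury), the streak factor, was at 3.12, 44.1, 6.27, 3.28 and 0.105 CPM, while the Nox4-/- lines stayed between 0.149 and 0.799 CPM. The groups overlapped on account of day 14, and the call (3.57 ± 0.774, FDR 0.00168) was lost without the libraries of day 3 and against #5-8 or #5-23 alone (FDR 0.0619 and 0.0116). Eomes also peaked on day 3, at 121 CPM against at most 6.68 CPM in the Nox4-/- lines (3.33 ± 0.514). Nodal, the ligand that patterns the epiblast and streak, was at 145 CPM on day 0 and 7.38 CPM on day 14, above a Nox4-/- range of 0.0374 to 0.41 (7.85 ± 0.402). Lhx1 peaked on day 3 at 81.7 CPM and did not exceed 0.0953 CPM in the Nox4-/- lines (10.60 ± 0.464).

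Later mesoderm genes climbed after day 0. Kdr, the VEGF receptor of early vascular and cardiac progenitors, was at 0.328 CPM on day 0 and 41.6, 55.1, 30.5 and 15.3 CPM thereafter, against at most 0.299 CPM (7.08 ± 0.734). Hand1 went from 0.164 to 135 CPM on day 5 (7.85 ± 0.779), and Foxf1 from 0.082 to 22.7 CPM on day 7 (7.41 ± 1.18). Pdgfra, the receptor of paraxial mesoderm and of primitive endoderm, was at 11.1, 43.6, 85.7, 170 and 297 CPM against 0.719 to 4.02 (5.33 ± 0.383). Snai1, a repressor of E-cadherin, was at 3.36 to 109 CPM (4.24 ± 0.862). Its relative Snai2 was at 0.246 to 15.4 CPM against 3.07 to 9.22 and was not called (−0.59, FDR 0.485).

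Of 16 tested cardiac muscle genes, 10 were higher in WT#20D-17 (median 4.09) and 6 were not called. Myh6, the heavy chain of adult atrial and ventricular myosin in the mouse, was at 3.28, 2.51, 19.3, 23.7 and 43.7 CPM and had no count in the Nox4-/- lines (at least 1500-fold). Myh7, the heavy chain of the embryonic ventricle, was at 0.574, 7.24, 71.7, 96 and 117 CPM against 0 to 0.152 (9.23 ± 0.886). Actc1, cardiac actin, had 1 count in all Nox4-/- libraries against up to 62.3 CPM, a ratio of 7670 (1380 to 303000). These sarcomere genes were highest from day 5 on. Nkx2-5, the early cardiac factor, stayed low even in WT#20D-17, at 0.041 to 6.45 CPM, and had 2 counts in the Nox4-/- lines (ratio 262, 72.6 to 2160). Ryr2, the most abundant gene of the list, overlapped between groups (3.36 to 90.7 against 19.9 to 67.6 CPM, FDR 0.266).

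Smooth muscle contractile genes were higher in 9 of 13 cases and lower in 1, with a median of 5.05. Acta2 was at 1.19 CPM on day 0 and 159, 425, 767 and 409 CPM later, against 1.28 to 15.1 CPM (5.69 ± 0.862), so that day 0 lay just below the Nox4-/- range and the other days above it. Tagln was at 20.3 to 258 CPM against 0.671 to 8.54 (5.82 ± 0.505). Cnn1 was at 2.56 to 18.2 CPM against at most 0.169 (7.43 ± 0.622). Mylk, the kinase of myosin light chain, was the lower one, at 0.369 to 5.65 against 4.03 to 21.1 CPM (−2.72 ± 0.494). The contractile list is shared by smooth muscle and by other cells with stress fibres.

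Interstitial collagen and fibroblast genes were higher in 10 of 19 cases and lower in 2, with a median of 3.95. The group went the other way on day 0. Its median on the log2(CPM + 1) scale was then −0.69, with 12 genes below both Nox4-/- lines and 6 above. On day 14 that median was 3.5, with 15 above and 2 below. Col3a1 was at 0.861, 10.4, 69.3, 984 and 999 CPM against 0.0885 to 4.58 (8.61 ± 1.68, FDR 0.000801), but it was not past the threshold against #5-8 or #5-23 alone (FDR 0.0529 and 0.0373). Lum was at 0, 0.303, 1.89, 132 and 118 CPM against at most 0.191 (7.97 ± 1.44), and Col1a2 was at 3.81 to 580 against 0.111 to 1.65 (7.55 ± 1.08). These matrix genes were highest on days 7 and 14. S100a4, also called fibroblast specific protein, went the other way, at 0.041 to 0.994 CPM in WT#20D-17 and 8.64 to 331 CPM in the Nox4-/- lines (−7.48 ± 0.661, FDR 1.19e-06). Fn1, fibronectin, the most abundant member, was at 599 to 2550 against 618 to 3140 CPM and was not called (0.09, FDR 0.729).

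The endothelial list was mixed, with 6 of 13 genes higher and 2 lower (median 1.9). Flt4 was at 3.61 to 9.88 CPM against at most 0.286 (5.77 ± 0.608), and Flt1, a VEGF receptor that trophoblast also makes, at 7.06 to 309 against 1.04 to 31.4 (3.32 ± 0.605). Tek, the angiopoietin receptor Tie2, was lower, at 1.35, 0.867, 16.6, 35.6 and 53.7 CPM against 81.3 to 234 (−3.46 ± 0.804, FDR 0.00272), a call that was lost against #5-8 alone (FDR 0.0306). Esam was lower too (−2.82 ± 0.366). Of the markers that define endothelium, Cdh5, which was higher (2.15), reached 95.4 CPM on day 14 of WT#20D-17 against at most 11.2 CPM in each Nox4-/- line, while Pecam1 was at 13.5 to 20.6 CPM in WT#20D-17, 20.3 to 111 CPM in #5-8 and 14.9 to 34.9 CPM in #5-23, and was not called.

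Primitive blood genes were at low levels. Of 9 tested, 6 were higher (median 2.18). Runx1, the most abundant of them and a transcription factor of definitive blood formation, was not called (−1.52, FDR 0.0812), at 5.87 to 13.4 CPM in WT#20D-17, 5.7 to 11.9 CPM in #5-8 and 26.7 to 74.6 CPM in #5-23, against which alone it was lower (−2.4, FDR 0.00038). The summed level of the list was higher in #5-23 than in WT#20D-17 on days 0, 3, 5 and 14, with 82.7 against 16.2 CPM on day 14. Hbb-bh1, an embryonic globin, was at 0, 0.173, 9.24, 30.8 and 0.262 CPM with no count in the Nox4-/- lines (at least 657-fold, FDR 0.00129), and Hba-x reached 10.9 CPM on day 7 against 2 counts. Both were missed by DESeq2 (adjusted p of 0.0106 for Hbb-bh1 and 0.141 for Hba-x), and reads of near-identical globin copies are divided by the counting. Tal1, the blood and endothelial factor, was at 0.209 to 3.57 CPM against at most 0.169 (5.39 ± 0.756).

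Neural genes were more often lower than higher. Of 13 tested neural and neural crest genes 5 were lower, all without overlap, and 3 higher, with a median of −2.22. Sox1, the first marker of neuroectoderm, was at 11.3, 2.47, 1.5, 1.82 and 0.209 CPM against 42.6 to 108 (−4.80 ± 0.485, FDR 3.78e-06). Stmn2, a tubulin regulator of neurons, was at 72.4, 87.8, 30.4, 26.9 and 8.43 CPM against 417 to 1250 (−4.57 ± 0.471). Pax6 (−4.27 ± 0.431) and Ncam1 (−3.75 ± 0.463) did the same. The Nox4-/- lines held these transcripts from day 0 on, and Sox1 in WT#1-4 was at 68.1 to 136 CPM. Elavl3, an RNA-binding protein of neurons, was higher, at 1.15 to 11.4 CPM against at most 0.273 (5.66 ± 0.575), as was the growth cone gene Gap43 at 4.59 to 14 against at most 1.18 CPM (4.82 ± 0.539). The neural crest factors Zic1 and Pax3 were called against #5-23 alone (FDR 0.00115 and 0.00099) and not against #5-8 (0.13 and 0.871).

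Epithelial genes were higher in 10 of 12 cases, with a median of 4.44. Cldn6, a tight junction claudin of early embryonic epithelium, was at 312, 591, 640, 660 and 417 CPM against at most 0.258 (12.81 ± 0.413, FDR 3.04e-10). Cldn4 was at 62.6 to 146 CPM against at most 0.572 (8.88 ± 0.39), Cdh3 at 27.7 to 82.4 against at most 0.715 (7.86 ± 0.507), and Grhl2, a factor that keeps epithelial junction genes on, at 11.4 to 46.4 against at most 0.591 (7.70 ± 0.59). Cdh1, E-cadherin, was expressed by all lines but separated without overlap, at 211 to 496 against at most 85.7 CPM (2.86 ± 0.323). The list's sum in WT#20D-17 was 1150 to 1710 CPM on every day and 41 to 191 CPM in the Nox4-/- lines.

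Trophoblast genes were higher in 9 of 13 cases (median 5.92). Hand1 and Eomes are among them and also count in the primitive streak and early mesoderm group. Krt18 was at 76 to 980 CPM against at most 1.44 (11.09 ± 0.699), and its partner Krt8 at 58, 1080, 1070, 1110 and 1150 CPM against 0.0373 to 74.7 (6.23 ± 1.01). These keratins are found in all simple epithelia. The placental genes Prl3d1 and Tpbpa were at 136 and 74.4 CPM on day 14 of WT#20D-17 and had no count in the Nox4-/- lines, and Prl3d1 had none on the other WT#20D-17 days. Their calls were lost without the block. Without the day 14 library 7 genes of the list were higher.

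**Figure D3:**
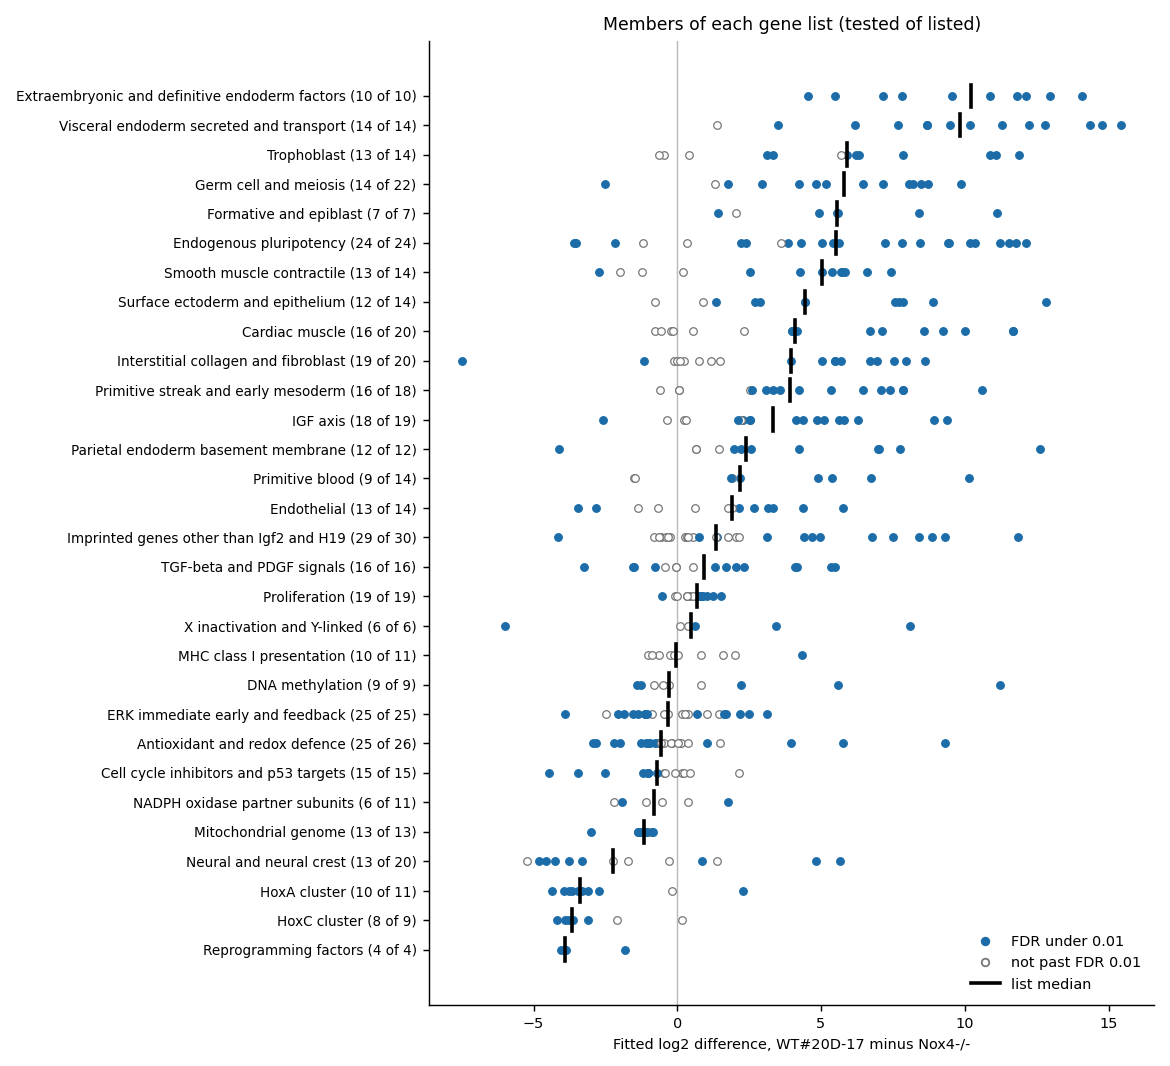
Fitted log2 difference, WT#20D-17 minus Nox4-/-, of every tested member of 30 gene groups, filled where the FDR is under 0.01, with a bar at the median. Endoderm factors and visceral endoderm genes lie farthest to the right, with medians of 10.22 and 9.83, and reprogramming factors, HoxC and HoxA genes farthest to the left, at −3.9, −3.65 and −3.38.

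The size of the differences by day was described on a scale that does not stretch low counts. On the log2(CPM + 1) scale, the median difference of the endogenous pluripotency list was 4.14 on day 0 and 3.67, 2.7, 2.24 and 2.11 on days 3, 5, 7 and 14. That of the reprogramming factors was −2.61, −3.45, −3.8, −4.11 and −4.06. The first median was largest on day 0, and the second was smallest in size on that day.

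**Figure D4:**
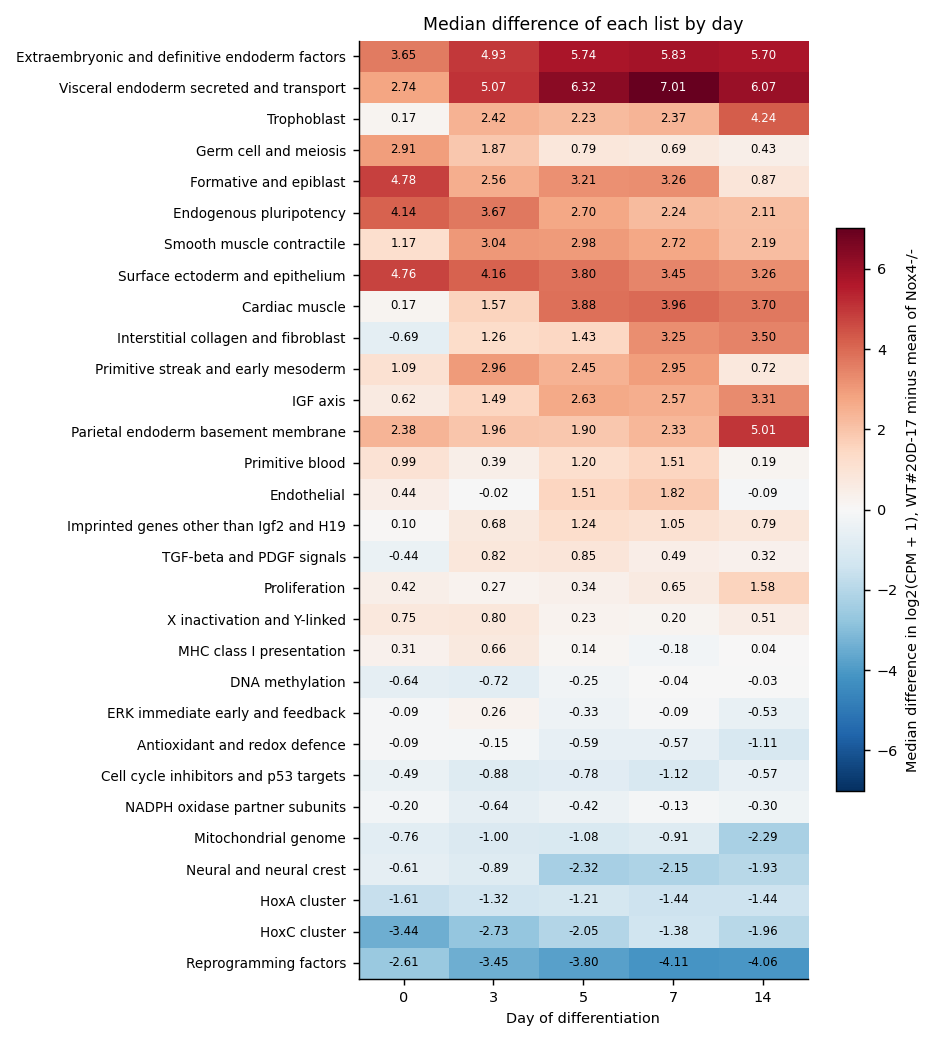
Median difference in log2(CPM + 1) between WT#20D-17 and the mean of the Nox4-/- lines for each gene group (rows) on each day (columns), red where WT#20D-17 is higher and blue where it is lower. Pluripotency genes are red and reprogramming factors blue on all 5 days, from 4.14 to 2.11 and from −2.61 to −4.11.

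The genes of the insulin-like growth factor (IGF) axis, which the study followed, were higher in 13 of 18 cases and lower in 1 (median 3.33). Igf2, the fetal growth ligand, was at 14.4, 523, 2560, 4700 and 3580 CPM in WT#20D-17, and at 1.31 to 3.76 CPM (median 2.37) in the Nox4-/- lines (9.39 ± 0.909, FDR 2.63e-06). WT#1-4 had 3.52 to 55 CPM. H19, the noncoding RNA that shares an imprinted enhancer region with Igf2, was at 121, 1770, 3890, 6050 and 4210 CPM against 0.48 to 20.9 (8.93 ± 1.13). Both genes were above the Nox4-/- range on day 0 and highest on day 7.

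Among the receptors and binding proteins, Igf2r, which removes Igf2 from the surface, was at 139 to 1010 CPM against 46.8 to 115 (2.52 ± 0.364), and Igfbp2 at 388 to 1070 against 0.745 to 49 (5.61 ± 0.668). Igf1 was low, at 0.173 to 2.88 CPM against at most 0.0738 (6.30 ± 0.588). Igfbp4 was at 11 to 159 CPM against 0.187 to 3.64 (5.80 ± 0.694). Igfbp3 was the lower member, at 40.4 to 174 against 106 to 2170 CPM (−2.58 ± 0.611). Igf2 overlaps the annotated Gm49394 on its own strand and Igf2os on the other, so its counts are uncertain to that extent. Without the day 14 library of WT#20D-17, 11 genes of the axis were higher and 1 lower.

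Other imprinted genes were higher in 12 of 29 cases and lower in 1 (median 1.34, or 0.7 against #5-8 and 1.49 against #5-23 alone). The share called, 44.8%, was close to the 44.5% of all genes tested. Slc38a4, an amino acid transporter, was at 163 to 491 CPM against at most 0.266 (11.85 ± 0.489). Dlk1 rose from 1.93 CPM on day 0 to 746 CPM on day 14 against 0.0443 to 1.09 (8.86 ± 1.18), and Dio3 from the same cluster had 1 count in all Nox4-/- libraries against up to 19.7 CPM (ratio 1660, 298 to 65500). Magel2 had a ratio of 573 (196 to 2780). Peg3, the most abundant, was at 317 to 1580 against 472 to 1740 CPM and was not called (−0.27, FDR 0.537). Peg13 was lower, at 0.564 to 1.82 against 10.5 to 27 CPM (−4.14 ± 0.317).

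TGF-beta and PDGF signals went both ways, with 8 of 16 genes higher and 4 lower. The ligands Tgfb1 and Tgfb2 had opposite signs: Tgfb1 was at 6.24 to 68.8 CPM against 0.408 to 4.64 (4.18 ± 0.488), and Tgfb2 at 0.41 to 68.2 against 136 to 452 (−3.24 ± 0.773), a call that was lost against #5-8 alone (FDR 0.0523). The receptors Pdgfra and Pdgfrb (5.47 ± 1) were higher, the latter with overlap and not against either line alone (FDR 0.0212 and 0.0266), and Pdgfd was the ligand that was called (4.10 ± 0.555). Pdgfa was at 24.8 to 40.6 against 16.8 to 49.4 CPM and Pdgfb at 1.31 to 29.1 against 8.75 to 34, and neither was called (−0.04, FDR 0.91, and −0.03, FDR 0.961).

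The immediate early and feedback genes of the ERK pathway were also divided, 6 higher and 8 lower of 25, with a median of −0.34 that turned to 0.08 without the day 14 library of WT#20D-17. Myc, described above among the reprogramming factors, is also in this group and was among the lower genes (−3.92). Jun was at 12.1 CPM on day 0 and 49 to 83.8 CPM later against 7.13 to 14.7 (2.50 ± 0.348). Egr3 (3.11 ± 0.423) and the phosphatase gene Dusp5 (2.18 ± 0.29) were higher as well. Etv5, the most abundant, was at 478, 171, 174, 121 and 40.1 CPM against 419 to 554 (−1.54 ± 0.386, FDR 0.00446), within the Nox4-/- range on day 0 and below it from day 3 on, and it did not pass against either line alone (FDR 0.0193 and 0.0243). Etv4 and Etv1 were lower too.

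Of 6 tested partners of the oxidase 2 were called, in opposite directions. Cyba, which encodes p22phox, was at 21, 45.7, 77.4, 69 and 27.5 CPM against 5.55 to 45.4 (1.78 ± 0.36, FDR 0.00104), but not against #5-8 alone (FDR 0.0401). Poldip2, whose product binds p22phox and raises Nox4 activity, was at 68.6 to 96.2 CPM against 234 to 343 (−1.94 ± 0.119, FDR 5.7e-08). Rac1 was at 184 to 296 against 242 to 569 CPM and was not called (FDR 0.0573). The other 5 of the 11 partners listed had too few counts.

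Antioxidant and redox genes were called in 14 of 25 cases, 4 higher and 10 lower (median −0.58). Gpx3, the secreted glutathione peroxidase, was at 40.3, 80.7, 161, 252 and 269 CPM against 0.885 to 5.92 (5.76 ± 0.482). Gpx7 had 2 counts in the Nox4-/- lines against 5.08 to 13 CPM, a ratio of 1000 (277 to 8260), and Gpx8 was at 7.42 to 21.2 against 0.221 to 1.43 (3.97 ± 0.41). The 2 last and Prdx4, which was higher by 1.05, act in the endoplasmic reticulum. The genes that were lower include Slc7a11, the cystine transporter, at 2.56 to 9.88 against 23.1 to 79.2 CPM (−2.92 ± 0.346), Nqo1 (−2.83 ± 0.364) and Gsr, targets of the factor Nrf2. Sod2, the mitochondrial superoxide dismutase, was at 60.2, 50.5, 46.9, 46 and 31 CPM against 175 to 275 (−2.21 ± 0.129, FDR 4e-08). Nfe2l2, which encodes Nrf2, was at 62.7 to 68.9 CPM in WT#20D-17 and was not called, while Keap1, its inhibitor, was lower (−1.25).

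Transcripts of the mitochondrial genome were lower in 12 of 13 cases (median −1.17). mt-Nd1 was at 1620, 992, 660, 742 and 295 CPM against 1210 to 3050 (−1.36 ± 0.173, FDR 2.67e-05), and mt-Nd3 at 1.72 to 11.3 against 22.7 to 70.1 (−2.99 ± 0.353). On day 0 mt-Nd1 of WT#20D-17 lay within the Nox4-/- range, and on the other days below it. Without the day 14 library of WT#20D-17, 11 were lower and the median was −0.86. WT#1-4 had a mitochondrial share of 1.41% to 2.14% of counts. Whether the share moves with cell composition or with RNA quality was not tested.

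Of 9 genes of DNA methylation, 3 were higher and 2 lower. The rises were Dnmt3l, Dnmt3b and Tet1, an oxidase of 5-methylcytosine at 35.3 to 245 against 6.51 to 29.3 CPM (2.20 ± 0.272). Tdg, the glycosylase that follows it, was lower (−1.40 ± 0.169). The maintenance enzyme Dnmt1 was at 173 to 232 against 100 to 601 CPM and was not called (−0.29, FDR 0.315).

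Of 22 germ cell and meiosis genes 14 had enough counts to be tested, 5 of them without a count in the Nox4-/- lines, so that they entered the test through WT#20D-17 alone. Among the 14, 12 were higher and 1 lower, counts that this entry favours. The summed level of all 22 listed genes was 25.1 to 156 CPM in WT#20D-17 and 5.42 to 13 CPM in the Nox4-/- lines. Sycp1, of the synaptonemal complex, was at 6.11, 4.55, 3.95, 4.57 and 5.6 CPM and had no count in the Nox4-/- lines (at least 402-fold). Mael, a factor of transposon silencing, was at 7.67, 2.86, 0.774, 0.71 and 0.471 CPM, also against none (at least 203-fold). Psma8 (at least 173-fold) and Rpl10l (at least 152-fold) did likewise, and Ddx4, the germ cell helicase, was at 0.523 to 17.9 CPM against at most 0.354 (4.24 ± 0.797). Levels were low, and all 5 of these genes were highest on day 0. Tdrd9 was the lower member, at 0.043 to 0.369 against 0.0443 to 2.72 CPM (−2.53 ± 0.704, FDR 0.00821).

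Promoters of this group are shown because 11 of the 20 genes with a matched promoter held the E-box CACGTG there. The E-box reads the same on both strands. It was found for 6.86% of all genes with a promoter and 9.51% of the tested ones. The first 4 belong to genes that were higher in WT#20D-17 and Tdrd9 to the lower one, each with the E-box in capitals. They are at chr13:112652311-112652369 (minus strand), chr1:166238932-166238994 (minus), chr3:102936159-102936224 (minus), chr10:88459514-88459579 (plus, with 2 E-boxes) and chr12:111971434-111971499 (plus):
Ddx4: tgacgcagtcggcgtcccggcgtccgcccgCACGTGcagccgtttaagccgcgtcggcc
Mael: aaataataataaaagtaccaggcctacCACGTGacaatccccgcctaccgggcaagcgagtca
Sycp1: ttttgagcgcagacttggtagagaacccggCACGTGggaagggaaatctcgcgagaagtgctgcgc
Sycp3: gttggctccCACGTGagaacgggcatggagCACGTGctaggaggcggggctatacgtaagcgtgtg
Tdrd9: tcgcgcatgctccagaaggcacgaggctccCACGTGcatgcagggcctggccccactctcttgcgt
The E-box was thus present in promoters of genes of both directions. The list is made of germ cell genes, and the share of E-boxes describes the list, not the difference between the lines. These sequences are those of the reference genome, not of the lines.

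Proliferation genes were higher in 10 of 19 cases and lower in 1, with a median of 0.69, and without the day 14 library 6 were higher. Bub1, a mitotic checkpoint kinase, was at 111 to 271 against 25.6 to 97 CPM (1.52 ± 0.162, FDR 6.07e-06). The calls of Plk1, Mcm3, Ccnb2 and Top2a were lost without the block. Inhibitors of the cell cycle and targets of p53 were lower in 8 of 15 cases and higher in none (median −0.69). Cdkn2a, which encodes p16 and Arf, was at 2.26, 6.07, 10.1, 9.1 and 13.9 CPM against 98.4 to 316 (−4.47 ± 0.268, FDR 4.87e-08), and Gdf15 was at 0.311 to 1.23 against 4.07 to 17.9 (−3.46 ± 0.492). Ccng1 was at 213 to 397 against 438 to 838 CPM (−1.18 ± 0.18). Of 10 tested genes of MHC class I presentation, only the proteasome subunit Psmb8 was called (4.35 ± 1.25, FDR 0.00968), a call that was lost against #5-23 alone (2.75, FDR 0.195) and without the genes of the mitochondrial genome (FDR 0.0101), and B2m was at 15.2 to 192 against 63 to 110 CPM (FDR 0.589).

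Homeobox clusters were lower in WT#20D-17 for HoxA and HoxC. Of 10 tested HoxA genes 8 were lower and 1 higher (median −3.38), and of 8 HoxC genes 6 were lower (median −3.65), all without overlap. Hoxa9 was at 0.082, 0.824, 2.66, 3.02 and 1.1 CPM against 12.1 to 40.5 (−3.94 ± 0.671), and Hoxc10 at 0.041 to 3.3 against 18.8 to 34.1 (−4.17 ± 0.685). WT#1-4 lay between the groups for Hoxa9, at 4.36 to 10.7 CPM, and had Hoxc10 at 0 to 0.281 CPM. The Nox4-/- lines held both genes on day 0. Hoxa13 was higher (2.29 ± 0.408), as were Hoxb2, with no count in the Nox4-/- lines (at least 166-fold), and Hoxb3 (4.89 ± 1.07), which overlapped and did not pass against either line alone (FDR 0.0538 and 0.0353). The HoxD median was 1.18 against #5-8 and −3.16 against #5-23. Hoxd4 was at 0 to 0.28 CPM in #5-8 and 9.33 to 14.1 CPM in #5-23, and had too few counts to be tested against #5-8. Neighbouring Hox transcripts overlap, among them Hoxc5 with Hoxc6 and Hoxa3 with Hoxa4, so single members are uncertain.

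Y-linked transcripts were present in all lines, but 1 of them was nearly absent from WT#20D-17. Kdm5d, a histone demethylase gene at chrY:897788-956786, was at 1.31, 1.3, 0.602, 0.666 and 0.68 CPM against 38.6 to 78.3 in the Nox4-/- lines and 52.9 to 62.4 in WT#1-4 (−6.01 ± 0.29, FDR 8.16e-09). Ddx3y was at 50.1 to 67.4 against 25.2 to 81 CPM (0.10, FDR 0.715), and Eif2s3y at 67.2 to 84.1 against 40.5 to 58.9 (0.60 ± 0.118, FDR 0.000887). The difference in Kdm5d was thus not shared by these Y-linked genes. Tsix, the antisense partner of Xist, had a ratio of 464 (128 to 3830) and Xist a difference of 3.43 ± 0.408, with values of at most 8.33 and 7.96 CPM. The reads of these overlapping genes cannot be told apart where the strand was not used in counting.

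By chromosome, the fitted medians were farthest from 0 on chromosome 14, at 0.49, and chromosome 5, at −0.27, followed by chromosome 1 at 0.24 and the sex chromosomes X and Y at 0.21 and 0.23. On chromosome 14, 252 of 607 genes were higher and 74 lower (53.7% called). The median was 0.51 against #5-8 and 0.44 against #5-23. It was 0.42 when WT#20D-17 was set beside WT#1-4, a value that is not fitted because that line was left out of the fit. On the log2(CPM + 1) scale the medians by day were 0.37 to 0.49 against #5-8 and 0.38 to 0.48 against #5-23. The shift was thus found against each other line, and was widest in the first 20 Mb, with window medians of 1.23 and 1.42 in which 34 of 65 genes were higher and 6 lower. Gata4, Myh6 and Myh7 lie on this chromosome. On chromosome 5, 153 of 1094 genes were higher and 254 lower, with a median of 0.02 against #5-8 and −0.55 against #5-23, so that the shift was seen against 1 Nox4-/- line only. All 8 windows of chromosome 5 were negative against #5-23, from −0.77 to −0.14.

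**Figure D5:**
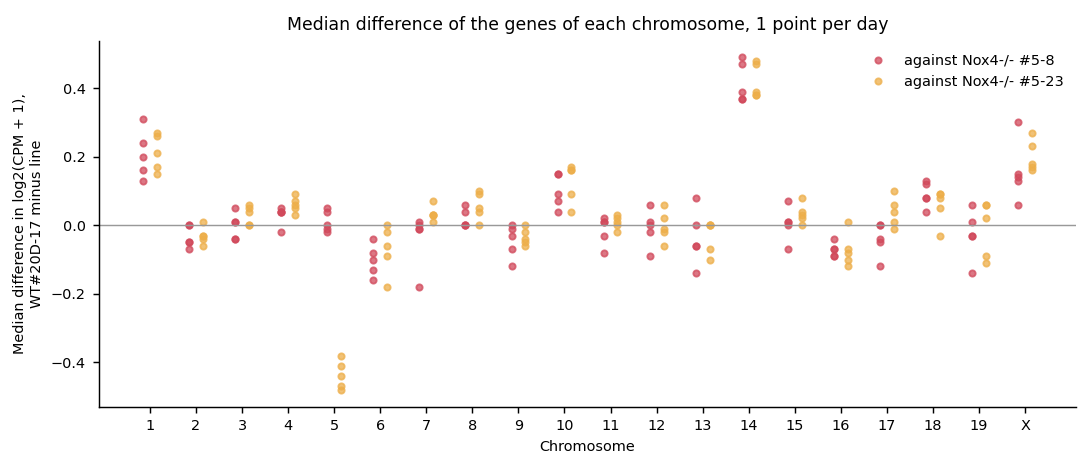
Median difference in log2(CPM + 1) of the tested genes of each chromosome, WT#20D-17 minus #5-8 or minus #5-23, 1 point per day and line. Chromosome 14 lies at 0.37 to 0.49 against #5-8 and 0.38 to 0.48 against #5-23, and chromosome 5 at −0.02 to 0.05 against #5-8 and −0.48 to −0.38 against #5-23.

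Near Nox4 itself, 53 of the 126 tested genes within 10 Mb were called (42.1%), 29 higher and 24 lower, close to the share of all genes. Ctsc, the lysosomal protease cathepsin C, was at 73.3 to 185 CPM against 0.31 to 3.63 (6.57 ± 0.5, FDR 3.39e-07), with WT#1-4 at 9.64 to 14.2. Fes, a tyrosine kinase, was lower (−3.34 ± 0.201), as was the tubulin ligase gene Ttll13 (−5.19 ± 0.474). These neighbours were picked after their values had been seen.

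The genes with the largest rises include 4 endoderm genes named above, Spink1, Apob, Ttr and Sox17, and the epithelial Cldn6. Further ones were Nup62cl (at least 5180-fold), Tmprss2 with 1 count in the Nox4-/- lines (ratio 26400, 4730 to 1040000), Clic6 (12.99 ± 0.397) and Gkn2 (at least 3790-fold). Tmprss2, a transmembrane serine protease of epithelia, was at 8.82, 107, 171, 180 and 76.5 CPM. Gkn2 was at 0.41, 0.867, 2.62 and 8.79 CPM up to day 7 and at 221 CPM in the library of day 14, without which it was at least 257-fold higher.

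The largest falls were of genes for which all WT#20D-17 libraries together held 3 counts or fewer. Bmx, a Tec family kinase, had 3 counts on day 0 against 7.17 to 158 CPM (ratio 2020, 690 to 9790). Dapl1 was at 3.04 to 99.1 CPM in the Nox4-/- lines (ratio 2320, 643 to 19200), and the neuropeptide gene Ucn3 at 1.75 to 19.6 CPM against no count (at least 335-fold). WT#1-4 expressed these 3 genes too, at 7.56 CPM or more, so that WT#20D-17 alone among the 4 lines had them at or near 0. Ly6g6f (at least 909-fold), Klk1b27 (at least 1120-fold), Serpina1e (ratio 3170, 568 to 125000), Gm21698 (at least 493-fold), Gm21188 (at least 308-fold) and Gm32687 (at least 328-fold) were among them too. Klk1b27, Serpina1e, Gm21698 and Gm21188 have near-identical copies among which reads are divided.

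Whether the difference depended on the day was tested with an interaction of genotype and day, in which the spread came from the pair of Nox4-/- lines on each day. No gene passed an FDR of 0.01 in edgeR's quasi-likelihood test, 239 (1.45%) passed 0.05 and 2771 (16.8%) had an unadjusted p under 0.05. At 0.01, 569 genes passed with the Nox4-/- line as a replicate block, and a likelihood ratio test in DESeq2 called 1482. The genes named by the smallest p all had an FDR of 0.0124, which missed the threshold, and 0.0518 or 0.0591 without the day 0 library of #5-8 or #5-23. With the libraries of day 14 left out, an alternative chosen after seeing the data, the FDR was 0.0369 for Drp2, 0.0262 for Gpc6, 0.0969 for Prkaa2, 0.0254 for Kcnj5 and Dusp6 and 0.0211 for Ldhb. Drp2, a relative of dystrophin, went from 2.58 to 133 CPM in WT#20D-17 between days 0 and 14 while it went from 14.7 and 22.2 to 0.819 and 0.59 CPM in #5-8 and #5-23. Gpc6, a glypican, went from 3.81 to 148 CPM against 26.6 and 22.4 to 11.9 and 10.6, and Prkaa2, a catalytic subunit of AMPK, from 14.9 to 188 CPM.

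In the other direction, Kcnj5, an inward rectifier potassium channel gene, was at 2.22 and 1.26 CPM on days 0 and 14 of WT#20D-17 and went from 0.28 and 0.261 to 79.9 and 142 CPM in the Nox4-/- lines. Ldhb, the lactate dehydrogenase B chain, went from 486 to 61.2 CPM in WT#20D-17 and from 210 and 245 to 764 and 662 CPM in the others. Dusp6, an ERK phosphatase, went from 124 to 10.3 CPM against 39.6 and 31.6 to 68.7 and 66. The courses of Drp2, Gpc6, Kcnj5, Ldhb and Dusp6 thus crossed, with WT#20D-17 on opposite sides on days 0 and 14, and each day 14 value rests on 1 WT#20D-17 library.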

How the data were processed

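RNA-seq counts of 15 libraries were compared. Per the labels and methods, stranded mRNA libraries were mapped to GRCm38/mm10 with STAR 2.6.0c, and RSEM 1.3.1 gave expected counts per gene, which the authors deposited without normalization for 55573 genes in 20 libraries. Reads shared by several genes were split among them, so that 9.92% of values had decimals. Whether counting used the strand is not given in the sources used here. Symbols came from GENCODE M21 (55480 identifiers found).

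The expected counts were rounded and analysed in R 4.3.3 with edgeR 4.0.16 and limma 3.58.1. Genes with a mean of 10 or more counts over the 15 libraries entered glmQLFit and glmQLFTest with TMM factors and day as a factor, with Benjamini-Hochberg adjustment over all genes tested and an FDR under 0.01. CPM values were scaled with TMM. Genes with no count in a group are given as a lower bound from a floor of 3 counts over that group, and those with 1 to 3 counts as a ratio with an exact 95% Poisson interval. Library totals limit precision to 0.148 CPM at most, for counting error only.

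The comparison, its members and the gene lists were chosen with earlier results of these data known. Genes named in the text are Nox4, the 10 largest rises and falls of protein-coding genes without overlap, the 3 smallest interaction p-values in each direction, and in each list the 4 largest called differences, the most abundant member and genes the study names. Some of these genes are not reported here. Any other gene named was chosen after its values were seen. The day is the block given in the labels. Deviations from line means on the same day correlated by 0.2 to 0.744 between the Nox4-/- lines and by −0.0113 to 0.255 between WT#20D-17 and them. Alternatives covered the block, test (DESeq2 1.42.0), scaling, filter, threshold, line as the unit, and leaving out each library, day and line. The script was tested on simulated counts. Promoters came from RefSeq (GRCm38.p6).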

Additional observations from a re-analysis of the deposited data

Results flagged for a closer look

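Among 24 groups of 5 libraries examined, 4 held a library whose gap to the nearest of the others was large for the group's range. The groups covered depth, scaling, composition and the level of Nox4. The rule flags about 1 in 20 groups of independent values. The 5 days of a line are steps of 1 course, so this rate does not apply to them. The TMM factor was lowest on day 14 in #5-8 (0.96), in WT#1-4 (0.931) and in WT#20D-17 (0.913). The share of counts in the 20 most abundant genes was highest on day 14 of WT#20D-17 (13.3%), where Col4a1 and Lama1 stood at 26100 and 8590 CPM.

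Drp2, Gpc6, Prkaa2, Kcnj5, Ldhb and Dusp6 each had an interaction FDR of 0.0124 for genotype and day (edgeR's quasi-likelihood test), which passes 0.05 and not the threshold of 0.01, and none passed 0.05 without the day 0 library of #5-8 or of #5-23 (0.0518 and 0.0591). From day 0 to day 14 the fitted log2 difference shifted by 10.4 for Drp2, 6.4 for Gpc6, 4.95 for Prkaa2, −9.47 for Kcnj5, −4.63 for Ldhb and −4.51 for Dusp6.

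WT#1-4, which entered no test, held 7, 22, 21, 12 and 3 counts of Nox4 on days 0, 3, 5, 7 and 14, against 3 counts in the 10 Nox4-/- libraries together.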

How the results depend on the processing

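The count of called genes, 7332, was 6601 with no replicate block, 7135 with the exact test, 8617 with DESeq2, 7301 and 7272 with other scalings, 8693 of 32477 without a filter, 9420 at an FDR of 0.05, 4862 at 0.001, and 500 with the line as the unit, where the design has 1 line against 2. It ran from 5117 to 7762 when libraries, days or a line were left out. Nox4 kept its direction throughout, at 8.39 with no replicate block and 7.66 to 10.06 with samples left out, but did not pass with the line as the unit (8.76, FDR 0.0182). The interaction with day, 0 genes, gave 730 without a filter, 569 with the Nox4-/- line as a replicate block, 648 with a linear trend, 1482 in DESeq2, 239 at 0.05, and 0 to 1 with samples left out (1 without day 14 of #5-8). Genes called against both lines numbered 4179, 4365 with no replicate block, and 2124 to 4467 with days left out (2466 without day 3, 2124 without day 5, 2307 without day 7). The cause was not tested. Of 168 named and tested genes, 145 were called, 0 of these changed sign under any alternative run, and 107 kept the call under all but the line as the unit, under which 47 of 144 did. The block changed the calls of Ccnb2, Mcm3, mt-Cytb, Nes, Plk1, Prl3d1, Sox2, Top2a and Tpbpa. List medians changed sign for the ERK group, MHC class I (0.66 against #5-8), HoxB (−1.15 without day 5 of WT#20D-17) and HoxD. Leaving out mitochondrial genes, chosen after seeing the data, gave 7333 calls. Values under 0.148 CPM lie below the floor of a library.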
